A study of Mus musculus with 2 samples.

Results

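A set of 40 genes for fatty acid uptake, activation, storage and beta oxidation was examined for peaks of H3R17me2a, in which an arginine of histone H3 carries asymmetric dimethylation. The 40 genes were chosen by name, with earlier results of these data known, and all of them were found among the 21883 protein-coding genes of the autosomes and sex chromosomes. Each gene was scored for a gene-end peak, a peak inside the gene and a wide peak, and tissue isozymes were set side by side. A gene counted as marked at an end if each of the deposited lists had a peak within 1000 bp of either end of its span.

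Fatty acids enter the heart muscle cell after lipase releases them from circulating lipoproteins, pass the membrane through carriers such as Cd36 and are bound by small fatty acid binding proteins. They are coupled to coenzyme A, carried into mitochondria as acylcarnitines and shortened by the repeating steps of beta oxidation, whose electrons flow through the electron transfer flavoprotein to the respiratory chain. The mouse heart turns to fatty acids as its main fuel in the weeks after birth, and several steps are served by a muscle isozyme there and by other isozymes in liver, gut, fat or brain.

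The study made chromatin immunoprecipitation sequencing (ChIP-seq) libraries, in which an antibody to a histone mark pulls down DNA fragments and a peak is a stretch where they pile up over background. Its 2 samples form 1 group of wild type mouse hearts at P21, 21 days after birth, with no second genotype, age or control analysed here, and Carm1, the enzyme in the series title, is the arginine methyltransferase known to place this mark. The sample titles read carm1 although the genotype is wild type, another label names cardiac fibroblasts where the tissue is given as heart, the design calls the hearts neonatal, and the antibody is named H3R17me2 in the protocol and H3R17me2a in the design. Whether the samples came from separate animals is not stated.

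List 1 held 21496 nuclear peaks and list 2 held 38012, at a lowest −log10 p of 5.001 and 2.005. Fold and p of each peak are the authors' values. From these the ChIP reads under each summit were recovered, and the median peak held 26 in list 1 and 15 in list 2. Within the 20978 pairs of overlapping peaks the median difference was 1.0 read, where independent draws of the same depth would differ by 5.0. The lists thus differed by less than the sampling noise and were counted as 1 sample, so that values from both carry no replicate error. This closeness rests partly on the factor used to recover list 2 reads, which presumes equal reads at shared summits. What moved values between the lists was not tested. Of the cardiomyocyte markers, 6 of 7 were marked at an end, where 38.6% of all coding genes were. No marker of fibroblasts (0 of 5), capillary endothelium (0 of 4) or adipocytes (0 of 5) was. The same held for hepatocytes (0 of 4), enterocytes (0 of 4) and neurons (0 of 4). Exact binomial intervals reach 52.2% for 0 of 5 and 60.2% for 0 of 4, so they include the 38.6%. That of the cardiomyocyte markers runs from 42.1 to 99.6%. Inside the gene, Pecam1 held 2 peaks found in both lists, and Ttr and Rbfox3 held 1 each. Col1a1 and Apoa1 had gene-end peaks in list 2 alone, with folds of 3.53 and 2.97. Which of the conflicting labels names the cells used was not tested. In whole tissue, fewer cells of a type and less mark per cell cannot be told apart.

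The sequences of 250 bases before the transcription start are shown for the genes on which the comparisons turn: the shared start region of the trifunctional protein genes, the heart isozymes Fabp3 and Acsl1, the carrier Cd36 and, as genes without a peak, Fabp1, Fabp2 and Cpt1c. They come from RefSeq on GRCm38.p6 and read 5′ to 3′ along the gene, up to the last base before the start. Capitals mark each CG dinucleotide (CpG).
Hadhb, chr5:30155003-30155252, plus strand: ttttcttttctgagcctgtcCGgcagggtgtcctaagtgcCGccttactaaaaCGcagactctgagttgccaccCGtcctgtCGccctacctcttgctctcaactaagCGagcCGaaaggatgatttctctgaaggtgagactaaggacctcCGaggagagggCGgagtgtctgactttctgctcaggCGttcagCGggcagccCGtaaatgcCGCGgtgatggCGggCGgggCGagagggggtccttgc
Fabp3, chr4:130308488-130308737, plus strand: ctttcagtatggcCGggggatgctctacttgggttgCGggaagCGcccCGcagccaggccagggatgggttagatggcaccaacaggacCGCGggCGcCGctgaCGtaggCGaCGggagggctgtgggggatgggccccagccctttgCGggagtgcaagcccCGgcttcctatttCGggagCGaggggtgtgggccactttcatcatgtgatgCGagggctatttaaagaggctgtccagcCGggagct
Acsl1 start 1, chr8:46470787-46471036, plus strand: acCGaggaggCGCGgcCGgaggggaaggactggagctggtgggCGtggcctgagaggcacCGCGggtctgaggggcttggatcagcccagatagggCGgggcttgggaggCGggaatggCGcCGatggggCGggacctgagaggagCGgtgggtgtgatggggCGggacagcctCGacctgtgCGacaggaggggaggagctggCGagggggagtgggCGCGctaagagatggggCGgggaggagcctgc
Acsl1 start 2, chr8:46490716-46490965, plus strand: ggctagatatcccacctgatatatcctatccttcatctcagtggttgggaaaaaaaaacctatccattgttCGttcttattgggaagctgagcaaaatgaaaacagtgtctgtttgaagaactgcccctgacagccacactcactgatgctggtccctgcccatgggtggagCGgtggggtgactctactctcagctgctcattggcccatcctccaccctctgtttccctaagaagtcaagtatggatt
Cd36, chr5:17835897-17836146, minus strand: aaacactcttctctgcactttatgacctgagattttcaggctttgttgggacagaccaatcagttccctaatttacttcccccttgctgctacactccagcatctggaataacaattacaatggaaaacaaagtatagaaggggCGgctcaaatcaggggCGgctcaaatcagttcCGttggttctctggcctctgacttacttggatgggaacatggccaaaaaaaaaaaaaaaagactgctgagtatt
Fabp1, chr6:71199629-71199878, plus strand: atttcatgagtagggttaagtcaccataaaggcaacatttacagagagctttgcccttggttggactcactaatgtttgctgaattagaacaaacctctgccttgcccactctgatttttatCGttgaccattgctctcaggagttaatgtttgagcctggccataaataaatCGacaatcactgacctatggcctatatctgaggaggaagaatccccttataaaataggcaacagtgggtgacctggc
Fabp2, chr3:122894822-122895071, plus strand: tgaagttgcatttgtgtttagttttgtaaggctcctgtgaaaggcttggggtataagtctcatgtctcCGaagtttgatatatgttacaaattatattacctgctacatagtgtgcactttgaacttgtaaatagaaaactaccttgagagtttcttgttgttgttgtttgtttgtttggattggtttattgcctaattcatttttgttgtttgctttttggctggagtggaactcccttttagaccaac
Cpt1c, chr7:44974852-44975101, minus strand: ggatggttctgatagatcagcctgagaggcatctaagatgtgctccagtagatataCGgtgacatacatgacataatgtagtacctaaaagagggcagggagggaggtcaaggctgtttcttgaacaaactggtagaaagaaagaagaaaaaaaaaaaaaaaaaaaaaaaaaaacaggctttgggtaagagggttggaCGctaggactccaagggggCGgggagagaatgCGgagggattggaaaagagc

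The Hadhb and Fabp3 stretches held 17 CG dinucleotides each, and the first start of Acsl1 held 20. The stretches of Cd36 (3), the second Acsl1 start (2), Fabp1 (2), Fabp2 (1) and Cpt1c (4) were poor in CG. Of those 5 CG-poor starts, Cd36 and the second Acsl1 start had a peak in both lists and the other 3 had none.

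Of the 40 genes, 27, or 67.5% (exact binomial 95% interval 50.9 to 81.4%, counting error only), were marked at an end, where 38.6% of all coding genes were. By step, the count was 4 of 9 for uptake and binding, 2 of 5 for activation, 5 of 7 for the carnitine shuttle and its control, 3 of 4 for storage and lipolysis, 10 of 12 for beta oxidation and 3 of 3 for electron transfer. The median fold of the strongest gene-end peak was 4.99 in list 1 and 4.06 in list 2, beside 4.17 and 3.89 over all marked genes. Among the 33 genes with a RefSeq start, 24 had a peak of each list within 1000 bp of a start, against 40.6% of the 17491 coding genes with one. Cd36, Cpt1a and Eci2 were marked at a start that lies inside their span and at no span end, which brought the genes marked at an end or a start to 30, where 41.3% of all coding genes were by that joint rule. Span ends alone were used for Decr1, Acaa2, Crat, Fabp4, Cpt1b, Lpl and Fabp5. With both lists held to peaks at or above their own median fold, 13 genes were marked against 12.3% of all coding genes. With the median of the recovered reads in its place, a setting chosen after seeing the data, 26 genes were marked against 31.9%.

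**Figure D1:**
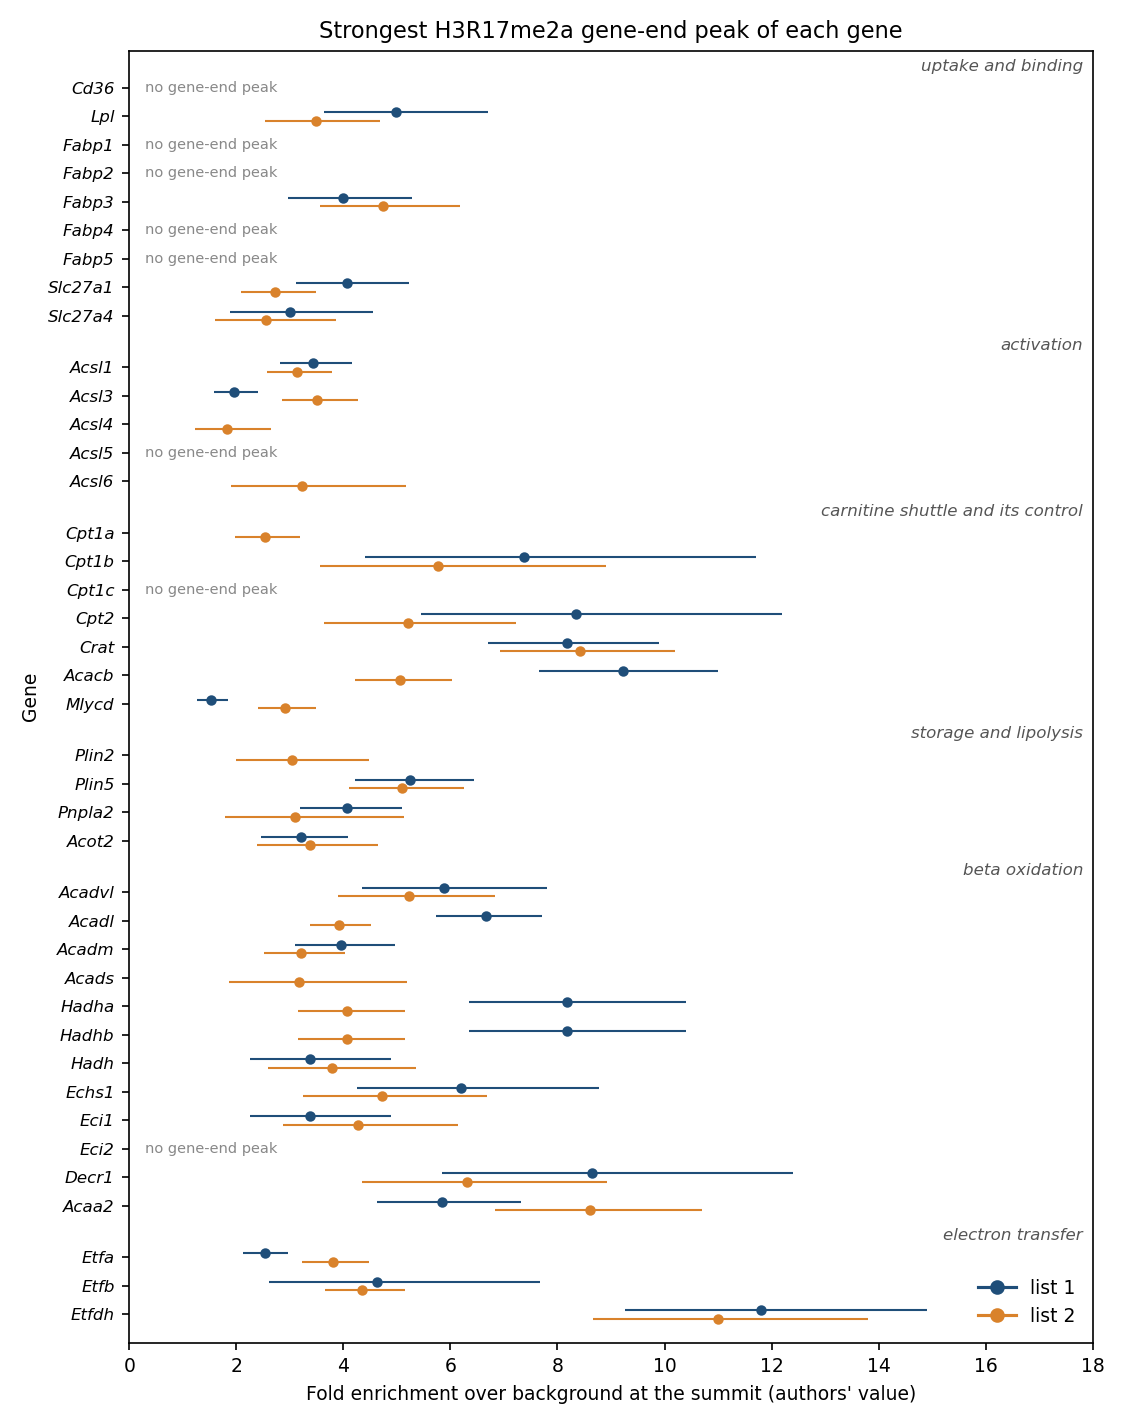
Fold enrichment over background of the strongest gene-end peak of each of the 40 genes (horizontal axis, the authors' value) in list 1 and list 2, grouped by step, with exact Poisson 95% intervals of the recovered reads that cover counting error only. Etfdh reaches furthest right in both lists (11.8 and 11), 8 genes have no gene-end peak in either list and 5 have one in list 2 alone.

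Fabp3, the fatty acid binding protein of heart and muscle, carried 2 wide peaks, and no other Fabp gene among the 40 had a peak of either list within 1000 bp of its span. The peak over the Fabp3 start, chr4:130306675-130309031 in list 1, had its summit 35 bp before the start in both lists, inside the sequence shown, with a fold of 2.66 (interval 2.35 to 3.00) on 265 reads in list 1 and 2.85 (2.52 to 3.20) on 270 reads in list 2. A second peak, 5225 bp wide in list 1 and 6170 bp in list 2, lay over the far end with folds of 4.0 and 4.74. It also reached an end of Zcchc17 (here and below, within 1000 bp of it), so it cannot be assigned to 1 gene. Between them, within a gene of 6.73 kb, lay 2 further list 1 peaks that overlapped peaks of list 2. Fabp1, the liver form, Fabp2, the gut form, Fabp4, the form of fat cells and capillary endothelium, and Fabp5, an epidermal form found in several other tissues, lay in peak-free stretches of both lists.

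Both fatty acid transport proteins among the 40 were marked at the start. Slc27a1, the transport protein of muscle and fat, had a fold of 4.07 (3.12 to 5.22) in list 1 and 2.72 (2.09 to 3.48) in list 2, on 60 reads in each. That peak was 2308 bp and 2201 bp wide and in both lists covered the first 2 of its 3 annotated starts. Slc27a4, a transport protein prominent in gut and skin, had the weakest gene-end peak of the marked genes in list 2, with 2.55 (1.61 to 3.87) on 19 reads and 3.00 (1.89 to 4.56) on 20 reads in list 1. Its summit fell 50 bp after the start in both lists.

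Cd36, the membrane carrier for long-chain fatty acids, had no peak at the ends of its 107 kb span. Its marked start lies 53.1 kb inside that span. The start peak, chr5:17835301-17837064 in list 1, had a fold of 11 (7.95 to 14.9) on 40 reads in list 1 and 8.28 (6.06 to 11.1) on 42 reads in list 2. Its summit lay 561 bp before the start in both lists, upstream of the CG-poor sequence shown. Another shared peak, 14.2 kb before the start, had folds of 6.25 and 12. Lpl, the lipase that frees fatty acids from lipoproteins, had a gene-end fold of 4.99 (3.63 to 6.71) in list 1 and 3.48 (2.54 to 4.68) in list 2, with the same summit base. Values for Lpl, and below for Acadl, Mlycd, Hadh, Echs1, Eci1, Acadm and Acot2, were added after they had been seen.

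Among the acyl-CoA synthetases, which activate fatty acids by joining them to coenzyme A, Acsl1 and Acsl3 were marked at an end. Acsl1, the main form of heart, had peaks of both lists at each of its 2 starts. At the first, CG-rich start the fold was 3.43 (2.81 to 4.16) on 102 reads in list 1 and 3.14 (2.58 to 3.79) on 105 reads in list 2. At the second, CG-poor start, 19.9 kb into the span, it was 4.0 (2.87 to 5.43) on 39 reads and 8.78 (6.40 to 11.8) on 41 reads. The recovered reads at the second start were thus nearly equal in the lists, which the recovery of list 2 reads partly presumes, while the deposited folds were apart. Acsl3, a broadly expressed form, had 93 reads at its start in list 1 with a fold of 1.96 (1.59 to 2.40), and 95 reads in list 2 with 3.51 (2.85 to 4.28), and that peak also reached an end of Utp14b.

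The other synthetases had peaks in list 2 alone. Acsl4, another broad form, had a list 2 fold of 1.83 (1.22 to 2.65) on 25 reads at its start. Acsl6, the brain form, had 3.22 (1.91 to 5.17) on 14 reads 186 bp before a start. Acsl5, the form of gut and liver, had 3.90 (2.10 to 6.86) on 9 reads 109 bp before its start, which lies inside its span. These list 2 peaks had −log10 p of 2.08, 3.62 and 4.10, below the lowest value that list 1 holds.

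In the carnitine shuttle, the muscle and liver forms of carnitine palmitoyltransferase 1, the gatekeeper of mitochondrial entry, were both marked, at different places. Cpt1b, the muscle form, carried peaks at both ends of its 9.46 kb span. Its strongest lay at the lower-coordinate end, chr15:89415286-89415883 in list 1, with a fold of 7.38 (4.40 to 11.7) on 16 reads in list 1 and 5.76 (3.56 to 8.91) on 17 reads in list 2. The peak at the other end was deeper in reads, with 134 reads in list 1 and 133 in list 2, and folds of 5.87 (4.93 to 6.95) and 4.62 (3.88 to 5.47). It reached an end of Chkb as well, so it cannot be assigned to 1 gene. Cpt1a, the liver form, had a list 2 peak at its span end with a fold of 2.53 (1.98 to 3.19) on 68 reads. The list 1 peak with the same summit, 2.22 (1.74 to 2.80) on 70 reads, was 246 bp wide and fell outside the 1000 bp window. Both lie within 1000 bp of the RefSeq start, 772 bp after it, so Cpt1a counted as marked at its start. Cpt1c, the brain form, had no peak of either list within 1000 bp of its span.

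The remaining genes of this step were marked, and several ranked high. Crat, which converts acetyl-CoA to acetylcarnitine, had folds of 8.18 (6.70 to 9.89) and 8.42 (6.93 to 10.2) on 105 and 107 reads, at an end shared with Ptpa. Acacb, the acetyl-CoA carboxylase whose product malonyl-CoA inhibits Cpt1, had 9.23 (7.66 to 11) on 119 reads in list 1 and 5.05 (4.21 to 6.03) on 121 reads in list 2. That summit lay 69 bp inside the lower-coordinate end of the span, and no peak of both lists lay at the single RefSeq start 19.1 kb downstream. Cpt2, the inner membrane transferase, had 2 neighbouring peaks in both lists, 1 near the start and 1 centred 1392 bp after it, and list 2 added a weak one of 2.62 on 6 reads 699 bp before the start. The peak near the start had folds of 4.0 and 5.20 and the downstream peak 8.34 and 5.07. In list 2 these folds were nearly equal, with intervals of 3.63 to 7.23 near the start and 3.34 to 7.45 downstream. By recovered reads the peak near the start was the larger in both lists, with 31 and 32 reads against 24 and 23. Mlycd, which breaks down malonyl-CoA, had 112 and 116 reads at its start but the lowest fold of the marked genes in list 1, 1.53 (1.26 to 1.84), with 2.91 (2.41 to 3.48) in list 2.

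In storage and lipolysis, Plin5, Pnpla2 and Acot2 were marked and Plin2 was not. Plin5, the lipid droplet coat protein of oxidative tissues, had a start peak with folds of 5.24 (4.21 to 6.44) and 5.09 (4.11 to 6.25) on 88 and 89 reads, summit for summit the same. A weaker peak in the window of its other end, with 2.04 and 2.70, had its summit 2.75 kb outside the span and lay over an end of Plin4, so it cannot be assigned to Plin5. Pnpla2, the triglyceride lipase of the droplet, had a wide start peak of 2267 and 2268 bp with folds of 4.06 and 3.03. Its strongest list 2 peak, 3.09 (1.78 to 5.13) on 12 reads, lay at the far end, which is shared with Cracr2b. Plin2, the droplet coat protein present in most cells, had a list 2 peak of 3.04 (2.00 to 4.47) on 23 reads 113 bp after its start and 1 shared peak inside the gene with folds of 8.96 and 5.76. Acot2, a mitochondrial acyl-CoA thioesterase, had folds of 3.20 and 3.37 at different summits. The first lay 532 bp after the start on 63 reads in list 1, the second 428 bp before it on 34 reads in list 2. At the list 1 summit, list 2 had 2.50 (1.93 to 3.18) on 63 reads. Acot2 has near-identical neighbouring copies among which reads can be split, so its values are uncertain.

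**Figure D2:**
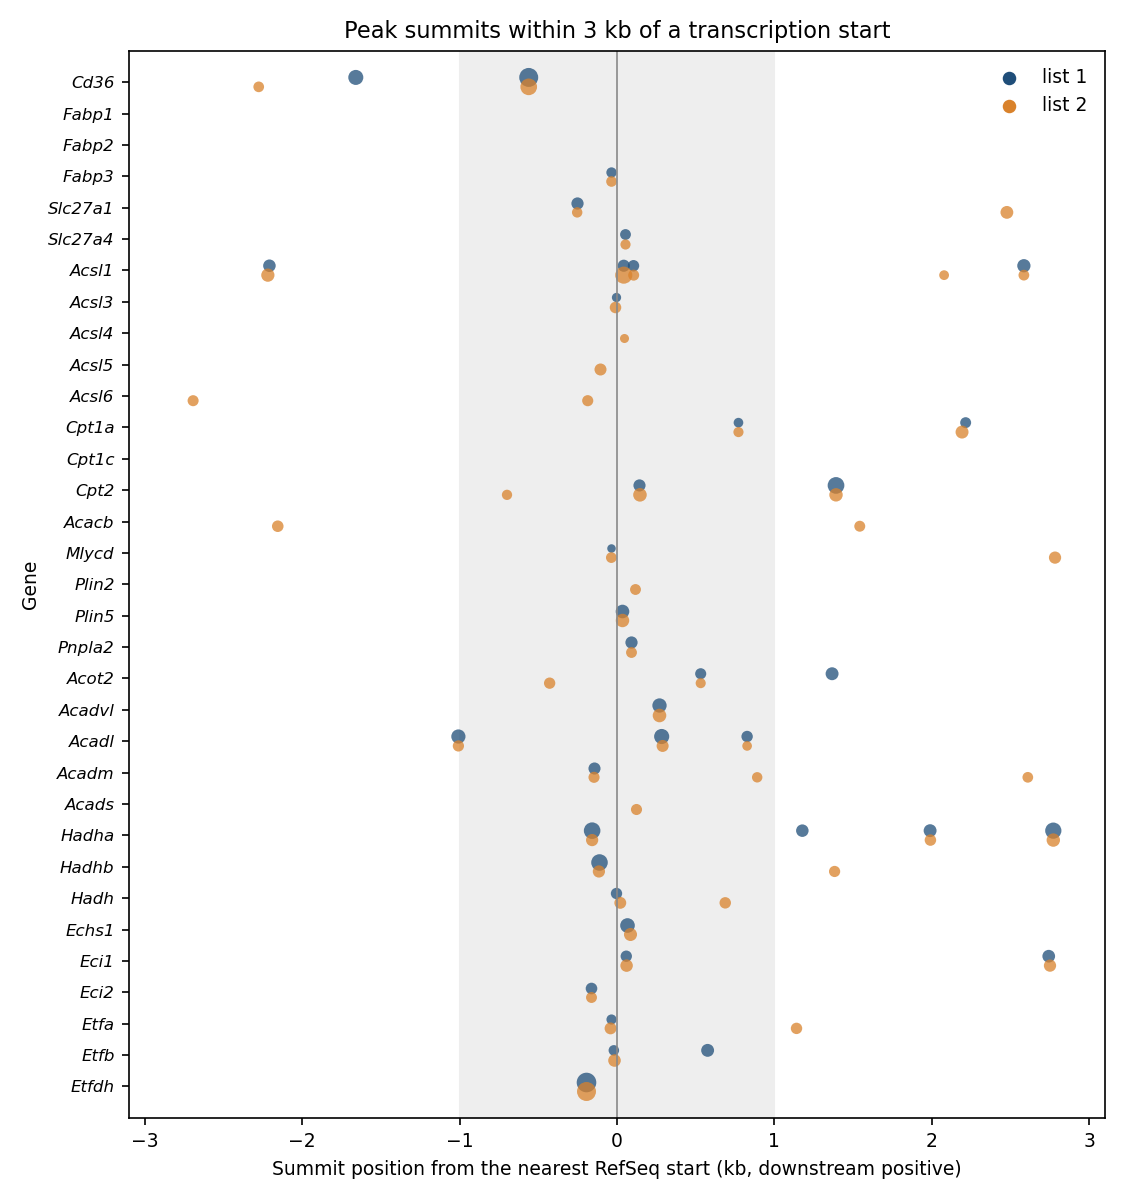
Distance of peak summits from the nearest RefSeq start (horizontal axis, kb, downstream positive) for the 33 genes with one, by list, with larger points for higher folds and the 1000 bp on each side shaded. Only summits within 3 kb are drawn, 38 of 87 in list 1 and 53 of 161 in list 2, of which 27 and 35 lie in the shaded band. Among the 22 of these genes marked at an end, the strongest gene-end summit lay within 300 bp of a start in 17 in list 1 and in 18 in list 2.

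Beta oxidation was marked at 10 of its 12 genes. The trifunctional protein joins the last 3 reactions of long-chain beta oxidation, and its subunit genes Hadha and Hadhb stand head to head on chromosome 5. A single peak, chr5:30154648-30155621 in list 1, covered both starts, with its summit 158 bp before Hadha and 115 bp before Hadhb, inside the sequence shown. Its fold was 8.18 (6.34 to 10.4) on 65 reads in list 1 and 4.06 (3.15 to 5.15) on 64 reads in list 2 at the same summit base. The 1 peak accounts for 2 of the 27 marked genes and cannot be assigned to either.

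Of the acyl-CoA dehydrogenases, which take the first step on chains of different length, those for very long, long and medium chains were marked and the short-chain form Acads was not. Acadvl, the very long-chain enzyme, had folds of 5.88 (4.34 to 7.80) and 5.22 (3.90 to 6.84) on 46 and 49 reads, in peaks with the same borders in both lists. Acadl, the long-chain enzyme, had 179 and 182 reads, with folds of 6.67 (5.73 to 7.72) and 3.91 (3.37 to 4.52). Among the highest-fold gene-end peaks of the 40 genes these were the most reads, but the lower-fold Fabp3 start peak held 265 and 270. Acadm, the medium-chain enzyme, had 3.95 (3.09 to 4.97) and 3.21 (2.52 to 4.03). Acads had a list 2 peak alone, 3.18 (1.86 to 5.18) on 13 reads, 123 bp after its start.

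Among the later enzymes the values ranged widely. Decr1, a reductase needed for unsaturated chains, had 8.64 (5.84 to 12.4) on 28 reads in list 1 and 6.31 (4.34 to 8.92) on 29 reads in list 2. Acaa2, the thiolase of the last step, had a wide peak of 2171 and 2295 bp, chr18:74778284-74780454 in list 1, with folds of 5.85 (4.62 to 7.31) and 8.61 (6.84 to 10.7) on 75 and 78 reads. Echs1, Eci1 and Hadh, the enzymes of hydration, double-bond shifting and hydroxyacyl dehydrogenation, had list 1 folds from 3.38 to 6.20 and list 2 folds from 3.79 to 4.73. The first 2 of these share the marked end with Paox and Rnps1. Eci2, a second isomerase, had no peak at its span ends but 3.58 (2.61 to 4.82) on 42 reads and 3.07 (2.25 to 4.09) on 43 reads at its RefSeq start.

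All 3 genes of electron transfer were marked. Etfdh, the oxidoreductase that hands electrons to ubiquinone, had the highest gene-end fold of the 40 genes in each list, 11.8 (9.26 to 14.9) on 70 reads and 11 (8.66 to 13.8) on 71 reads, with the summit 194 bp before its start in both. It stood above 98.6% of all marked genes in list 1 and 98.4% in list 2. The peak also reached an end of 4930579G24Rik. Etfa, the alpha subunit of the electron transfer flavoprotein, had 143 and 146 reads with folds of only 2.53 (2.13 to 2.97) and 3.80 (3.22 to 4.47). Etfb, the beta subunit, had a start peak of 2.79 (2.33 to 3.31) on 130 reads in list 1 and 4.35 (3.65 to 5.15) on 132 reads in list 2. Its strongest list 1 peak was a narrow one of 4.62 (2.61 to 7.67) on 13 reads 576 bp after the start. That peak reached an end of Cldnd2 as well. The start peaks of Etfa and Etfb were thus rich in reads and low in list 1 fold.

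The isozyme sets differed in count. All 5 forms placed in the heart and muscle set, Cpt1b, Fabp3, Acsl1, Slc27a1 and Plin5, were marked at an end. Of the 9 forms set against them, which are known mainly from other tissues (liver, gut, fat, brain or skin), Slc27a4 alone was, and among the broad forms Acsl3, Acsl4 and Plin2 it was Acsl3 alone. All coding genes stood at 38.6% by the same rule. The exact binomial interval for 1 of 9 runs from 0.281 to 48.2%, which includes that share. The low count of the second set thus does not show fewer marked genes than among all coding genes. For 5 of 5 the interval runs from 47.8 to 100%, so the intervals of these sets overlap. For the broad forms it runs from 0.840 to 90.6%. The span rule hides Cpt1a, which was marked at its RefSeq start, so 2 of the 7 forms of the second set with a start were marked there against 4 of 4 in the first set. Under 6 alternatives the 1 gene of the second set was lost and under 2 others the count was 2 or 3. At or above the median fold of each list, 2 of the 5 heart and muscle forms were marked. No difference between these sets was tested, because the genes were placed in them by name with results known. Some genes of the same families were left out of the sets. Of these, Slc27a2, Slc27a3, Slc27a5, Slc27a6 and Plin1 were unmarked at an end, whereas Plin3 and Plin4 were marked. Had Slc27a6 been placed in the first set, not all forms of that set would have been marked.

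Peaks inside the gene, away from both ends, were found in both lists for 17 of the 40 genes, against 15.4% of all coding genes. For Cd36, Cpt1a, Acsl1 and Eci2 they include a peak within 1000 bp of a RefSeq start that lies inside the span. In Eci2 that start peak is the only internal peak, so it does not add to the start mark. The same rule was used for all coding genes. Longer genes have more room for such peaks. Of genes from 2 to 10 kb, 2 of 11 had one, against 4.75% of all coding genes of that length. From 10 to 30 kb it was 7 of 15, 46.7%, against 13.1%, and over 30 kb it was 8 of 14, 57.1%, against 30.4%. In all there were 66 such peaks, of which 48, or 72.7%, lay in 5 genes, and 23 genes had none.

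Acacb held 14 of them, Cd36 and Acsl1 10 each, Hadhb 8 and Lpl 6. The strongest in Acacb had folds of 11 (8.32 to 14.3) and 6.14 (4.71 to 7.89), 33.3 kb into the span. In Acsl1 the last of them had its summit 32.4 kb into the 65.0 kb span, and beyond it list 2 alone had peaks. The 8 peaks of Hadhb had list 1 folds from 4.41 to 9.67. The 10 of Cd36 include the start peak and 7 further upstream of the RefSeq start, since the span runs on past it. In Lpl the peak just inside the gene had 8.41 (5.60 to 12.2) and 6.38 (4.38 to 9.01), above its gene-end peak in both lists. The strongest peak of all 40 genes lay inside Hadh, chr3:131245999-131247231 in list 1, with folds of 23.4 (17.3 to 31.0) on 46 reads and 15.6 (11.7 to 20.5) on 49 reads, 25.3 kb after the start. The Hadh start peak itself had only 3.38 (2.25 to 4.89) and 3.79 (2.60 to 5.35).

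**Figure D3:**
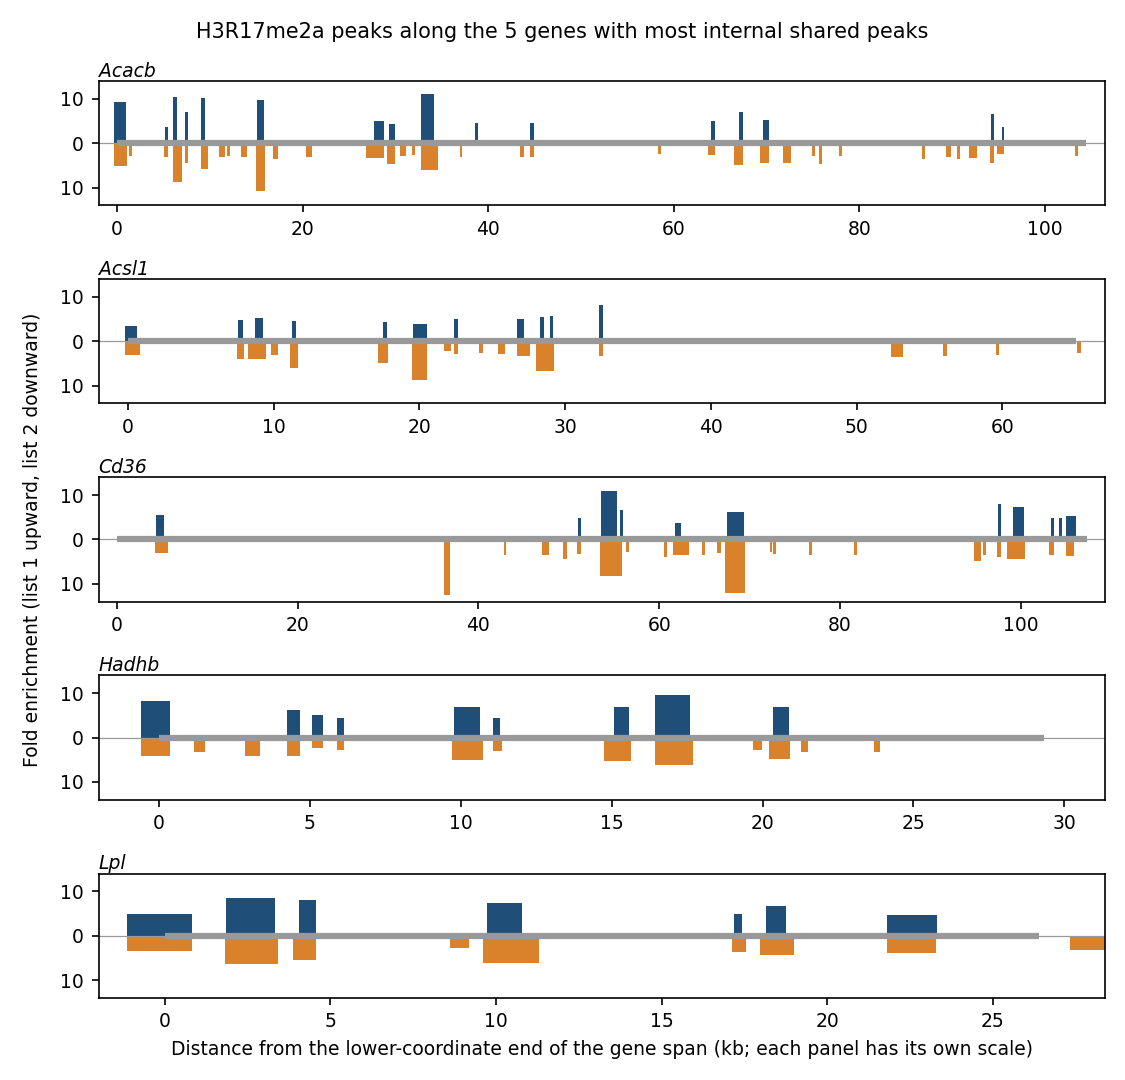
Peaks along the 5 genes with the most internal shared peaks, as distance from the lower-coordinate end of the span (horizontal axis, kb), with the fold of list 1 peaks drawn upward and of list 2 peaks downward, and the span as a grey line. Acacb holds 14 internal peaks of list 1 that list 2 shares, Cd36 and Acsl1 10 each, Hadhb 8 and Lpl 6, and list 2 adds further peaks in every panel.

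Wide peaks, at least 2000 bp in both lists, were found at 4 of the 40 genes, against 1.34% of all coding genes. These were the peaks of Fabp3, Slc27a1, Pnpla2 and Acaa2 described above. The Fabp3 far-end peak was the widest of them. From 1500 bp the count was 7, against 3.02% of all coding genes, and from 3000 bp it was 1, against 0.439%.

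The deposited fold moved between the lists more than the recovered reads did. List 2 reads were recovered with a factor that presumes equal reads at shared summits, so their nearness rests partly on that factor. Of the 27 marked genes, 25 had strongest gene-end peaks that overlapped in the lists, 11 of them on the same summit base. The fold was higher in list 1 for 18 genes and in list 2 for 9, where 59.8% of all marked genes were higher in list 1. Acacb, Acadl and Hadha had higher folds in list 1 with intervals that did not overlap those of list 2, on reads that differed by at most 3. Mlycd, Acsl3 and Etfa had higher folds in list 2, again with intervals that did not overlap and with nearly equal reads. Because the lists count as 1 sample, their counting errors are not independent, so overlap of the intervals tests no difference between lists. Among the 27 marked genes, 10 had a strongest gene-end peak, in either list, that reached within 1000 bp of an end of another coding gene. Counting every gene-end peak found in both lists, 11 had one that did. No share over all marked coding genes stands beside these counts, so they do not set the 27 genes apart.

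Base composition before the start went with the mark across all coding genes. Among starts with an observed to expected CG ratio of at least 0.6 in the 250 bases before them, 68.9% of 9508 starts were marked over all genes and 81.2% of the 16 starts of these genes. Below 0.6 it was 16.4% of 11754 starts over all genes and 65.2% of 23 here, where starts of 1 gene share that gene. Cd36, with a ratio of 0.258, and the second Acsl1 start, with 0.138, were marked at low ratios. Fabp2 (0.134), Fabp1 (0.175) and Cpt1c (0.408) were unmarked, and so were Acsl4 and a start of Acsl6 at 0.798 and 0.858.

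**Figure D4:**
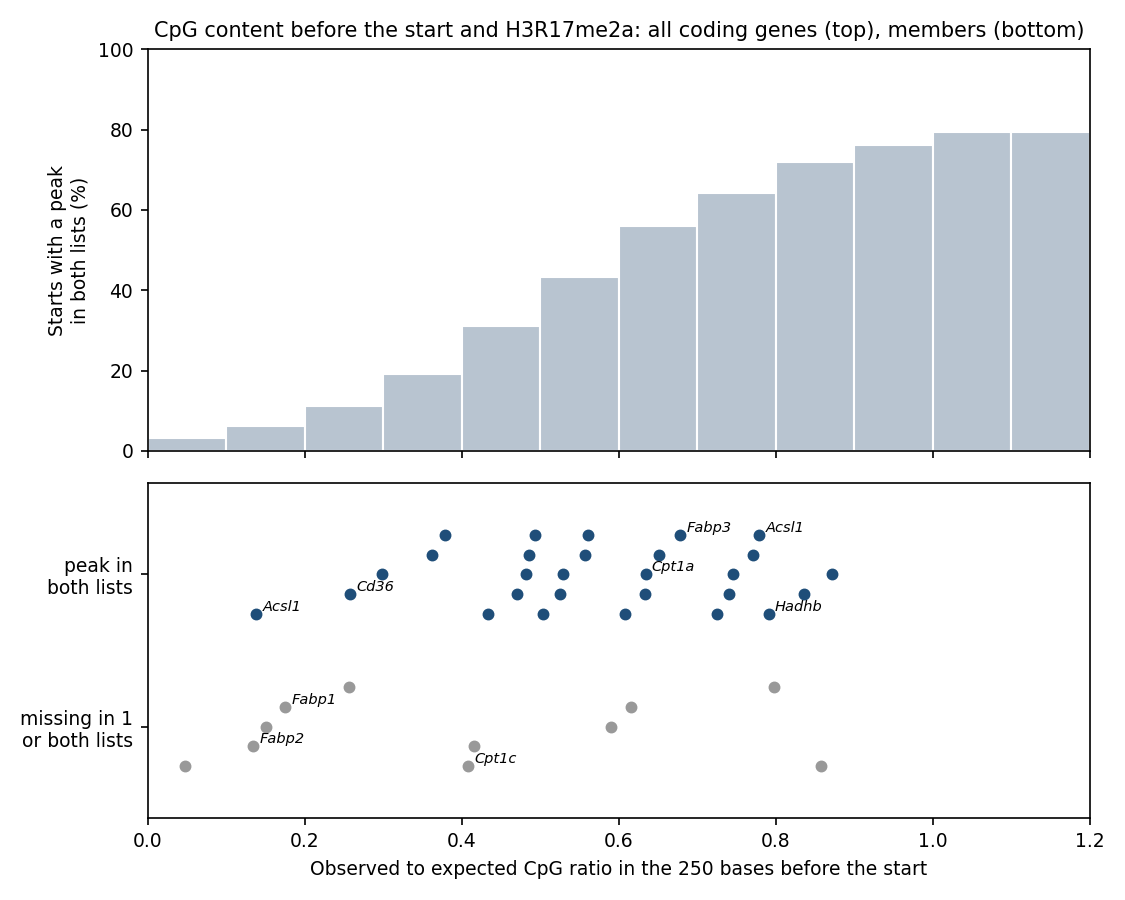
Top, share of all RefSeq starts with a peak in both lists (vertical axis, %) by observed to expected CpG ratio in the 250 bases before the start, and bottom, the 39 starts of the 33 genes at the same ratio, by whether both lists had a peak (vertical spread within a row only separates points). The share over all genes goes from 78 of 2500 starts in the lowest class to 353 of 445 in the highest drawn, while marked starts of these genes begin at a ratio of 0.138.

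The hexamer AGGTCA, the core that nuclear receptors such as the PPAR and ERR families bind, was searched on both strands of the same 250 bases. It occurred before a start of 10 of the 33 genes, 30.3%, against 14.6% of 17491 coding genes. Among genes marked at a start it occurred in 6 of 24, 25.0%, against 11%. In the sequences shown it begins 228 bases before the Cd36 start on the opposite strand, 146 bases before that of Cpt1c, and 67 and 9 bases before that of Fabp1 on the opposite strand, so marked and unmarked genes held it. The longer TCAAGGTCA, which contains the hexamer, occurred in 1 gene, Acsl6, against 0.360% of coding genes. The direct repeat of AGGTCA spaced by 1 base occurred in none, against 0.0515%. A match describes the letters and is not a binding site.

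Other genes of the pathway, 52 chosen by name, were marked at an end in 35 cases, 67.3%, beside the 38.6% of all coding genes. Slc25a20, the carrier that exchanges acylcarnitine for carnitine across the inner membrane, had folds of 6.36 and 4.69. Angptl4, an inhibitor of Lpl, had 7.93 and 6.30, Pdk4, a kinase that restrains glucose oxidation, 7.67 and 5.07, and Ppara, a nuclear receptor that drives fatty acid oxidation genes, 5.84 and 4.10. The 17 without a mark included Fabp6, Fabp7, Fabp9 and Fabp12, so Fabp3 was the marked one of the 9 Fabp genes examined. They also included Slc27a2, Slc27a3, Slc27a5 and Slc27a6, and the adipocyte coat protein Plin1.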

How the data were processed

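Both wild type P21 heart samples come with 1 peak list each. FastQC, Bowtie2 and mm10 are named, without versions, in the submitters' processing notes. The peak caller and control were not given in the sources used here. The deposited fold is a linear ratio over background at the summit, read from the narrow peak layout. The deposited p-value and q-value are on a −log10 scale, and the deposited score is a multiple of that −log10 p-value. Total depth is unknown.

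Reads at each summit were recovered as the whole number for which fold and Poisson p agree, with list 2 reads multiplied by 0.618, a factor found by scanning. This returned p within 0.001 on the −log10 scale for 99.98% of list 1 and 99.88% of list 2 peaks. A test on simulated data was given the true factor, so it covers the recovery of reads but not the scanned factor. The factor presumes equal reads at shared summits, so closeness of the lists rests partly on it. Of the pairs, 42.1% had the same summit base. Intervals are exact Poisson or binomial at 95%.

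Genes and starts are RefSeq on GRCm38.p6, whose primary chromosomes have mm10 coordinates, 1-based. Overlap meant 1 bp, unless an alternative is named. A wide peak had at least 2000 bp in both lists, within 1000 bp of the span. With 1 group no test between conditions was possible, so counts stand beside all coding genes.

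The 40 genes, the isozyme and marker lists and the rule for named genes were chosen with earlier results of these data known. The rule took the isozyme families, the 8 genes with the lowest summed rank by fold, genes with wide peaks, genes without a gene-end peak, and the trifunctional and electron transfer genes. Python 3.11.15, numpy 2.4.6, pandas 2.3.3 and scipy 1.17.1 were used. Alternatives changed the p, q, fold or read threshold, list length, window, overlap, width and list.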

Additional observations from a re-analysis of the deposited data

How the results depend on the processing

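With each list held to peaks at or above its median fold, the genes marked at an end went from 27 to 13, those with a wide peak from 4 to 1, the heart and muscle isozymes from 5 to 2, the other pathway genes from 35 to 14 and all coding genes from 8452 to 2695. With the median of recovered reads in its place, a setting chosen after seeing the data, 26 of the 40 genes were marked. The count of wide peaks was 7 from 1500 bp and 1 from 3000 bp. The isozymes of other tissues, with 1 gene marked, had 0 at a −log10 p of at least 5, at a −log10 q of at least 2, at or above the median fold or the median reads, with list 2 cut to as many peaks as list 1 and with a 50% overlap of the peaks, and 2 with a 3000 bp window. From 1 list alone their count ranged from 1 to 3, the higher from list 2, which has more peaks. Of the 27 marked genes, 12 were marked under all 11 alternatives. The matching share of all marked coding genes was not computed, so whether that is high or low is unknown. The count of genes with an internal peak stayed within 1.5 times its value under each.

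Of the strongest folds, 1 left its counting interval with a 500 bp window or with the summit required in the window, that of Cpt2 in list 1, which went from 8.34 to 4.0, and 7 did with a 3000 bp window. No paired analysis was possible because both samples belong to 1 group. No value carries replicate error, the total depth is unknown, and a peak at an end shared by neighbouring genes cannot be assigned. The cause of these shifts was not tested.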

Other observations

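Of the 52 other pathway genes, 18 held an internal peak shared by both lists, where 15.4% of all coding genes did. The 52 genes had a median length of 27.0 kb, against 17.2 kb for all coding genes, and this count was not split by length. The genes with the most internal peaks, chosen here after their values were seen, included 2 of triglyceride turnover. Dgat2, which makes triglyceride, held 13 and had gene-end folds of 4.78 in list 1 and 16.8 in list 2. Mgll, the lipase of monoglycerides, held 9, with 5.43 and 3.06. Lipe, the hormone-sensitive lipase, held 3 although it was not marked at an end in both lists, and Dgat1, Abhd5, G0s2, Plin1 and Plin3, also of triglyceride storage and breakdown, held none. Acot7, a cytosolic thioesterase, held 6, Pdk4 held 5 and Ppara 4. Vldlr, the receptor that takes up very low density lipoprotein, held 3 and had a wide peak, as did Plin4, a droplet coat protein next to Plin5, with gene-end folds of 8.24 and 6.92. In the mitochondrial ketone pathway, Oxct1, the enzyme that uses ketone bodies, had folds of 4.11 and 3.20 and a wide peak, whereas Bdh1 had 1 internal peak and none at an end.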
